A study of Mus musculus with 2 samples.

Results

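The genes described here are 39 named members of the actin cytoskeleton and the phagocytic cup, out of 21938 protein-coding genes examined. They were chosen by name for their role in this pathway, and all 39 matched a gene of the GENCODE M21 annotation. This choice, and that of the classes below, was made with earlier results of these data known. From general knowledge of where each gene is expressed, 12 were placed in a leukocyte-restricted class and 27 in a broadly expressed class. The leukocyte-restricted genes were Was, Rac2, Arhgdib, Vav1, Dock2, Dock8, Coro1a, Lcp1, Lsp1, Fermt3, Myo1f and Myo1g. The study sequenced chromatin precipitated with an antibody to H3K4me3 (histone H3 trimethylated at lysine 4, a modification typical of promoters in use or in waiting). The cells were C57BL/6J macrophages grown from bone marrow. There was 1 group, of cells that received no stimulus, with 2 biological replicates that began from 10 ng of DNA each. Both replicates carry the same donor entry in the labels, so they may not come from separate animals and their spread may be technical. Sex was not collected, age and developmental stage are not given, and no transgene or treatment is named. No other condition was measured, so every comparison below is between genes, and no test across conditions was possible.

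Each replicate had its own list of peaks, with 20031 peaks in replicate 1 and 16376 in replicate 2. The lists carry no read counts, so the depth behind a peak is unknown and no interval from depth can be given. Widths were larger in replicate 1 at 98.7% of the protein-coding genes marked in both replicates. The fold values of the 2 lists are on different scales, with a median of 21.7 in replicate 1 and 10.7 in replicate 2, so folds are given per replicate and set against each other as percentiles within a list. The labelled cell type was checked against marker genes. All 10 macrophage markers (Csf1r and Adgre1 among them) had a promoter peak in both replicates. So did 0 of 5 B cell, 0 of 5 neutrophil, 0 of 4 mast cell and 0 of 5 fibroblast markers, 1 of 5 T and NK cell markers (Cd3d), and 2 of 4 endothelial markers (Pecam1 and Kdr). In a bulk sample, a mark in fewer cells and a weaker mark in each cell cannot be told apart.

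Macrophages engulf particles by pushing a sheet of branched actin filaments around them, which closes as the phagocytic cup. Receptors on the membrane signal through guanine nucleotide exchange factors to small GTPases, which switch on nucleation promoting factors of the WASP and WAVE families. These in turn activate the Arp2/3 complex, which starts new filaments as branches on old ones. Profilin, thymosin and cofilin set the supply of actin monomers, bundling and capping proteins shape the network, and kindlin, talin, vinculin and the ezrin family tie it to integrins and the membrane. Several of these proteins exist in a ubiquitous form and a form made mainly in blood cells, so the gene set mixes promoters of both kinds.

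The promoter sequences below belong to the 3 members of each class with the widest H3K4me3 domains among those whose promoter entry overlapped the domain of both replicates, and they are shown for their CpG content, in which the classes stood apart. Each runs from 250 bases before to 50 bases after a RefSeq start on the GRCm38.p6 assembly (mm10), 5′ to 3′ on the strand of the gene, with every CpG dinucleotide in capitals. Lcp1 has a wider domain, by the mean of the replicates, than the leukocyte-restricted genes shown, but its promoter entries lie outside it. The Myo1f and Arhgdib windows lie wholly inside the domain in replicate 1 and share 258 and 239 of their 300 bases with it in replicate 2, and the other 4 lie wholly inside in both. The windows of the leukocyte-restricted genes are Myo1f (chr17:33555457-33555756, plus strand), Dock8 (chr19:24999279-24999578, plus strand) and Arhgdib (chr6:136941850-136942149, minus strand). Those of the broadly expressed genes are Tln1 (chr4:43562534-43562833, minus strand), Actg1 (chr11:120348446-120348745, minus strand) and Cfl1 (chr19:5490205-5490504, plus strand).
Myo1f: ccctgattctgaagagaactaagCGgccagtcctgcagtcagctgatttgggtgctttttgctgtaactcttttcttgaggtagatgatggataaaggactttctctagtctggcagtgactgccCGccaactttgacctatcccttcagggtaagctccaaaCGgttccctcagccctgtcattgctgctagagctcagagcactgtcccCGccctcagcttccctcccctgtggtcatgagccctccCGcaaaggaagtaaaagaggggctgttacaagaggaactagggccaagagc
Dock8: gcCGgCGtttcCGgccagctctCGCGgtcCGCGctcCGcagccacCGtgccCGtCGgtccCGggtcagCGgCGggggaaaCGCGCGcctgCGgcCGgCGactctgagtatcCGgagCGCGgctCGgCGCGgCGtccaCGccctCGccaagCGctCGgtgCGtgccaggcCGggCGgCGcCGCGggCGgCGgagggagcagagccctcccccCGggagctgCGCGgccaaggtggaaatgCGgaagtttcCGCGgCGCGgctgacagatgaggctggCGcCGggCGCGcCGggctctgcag
Arhgdib: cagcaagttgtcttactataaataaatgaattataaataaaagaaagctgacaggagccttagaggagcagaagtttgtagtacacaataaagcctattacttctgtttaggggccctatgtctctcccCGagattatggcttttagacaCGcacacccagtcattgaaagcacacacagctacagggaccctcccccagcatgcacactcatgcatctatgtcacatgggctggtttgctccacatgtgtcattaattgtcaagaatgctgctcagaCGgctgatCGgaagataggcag
Tln1: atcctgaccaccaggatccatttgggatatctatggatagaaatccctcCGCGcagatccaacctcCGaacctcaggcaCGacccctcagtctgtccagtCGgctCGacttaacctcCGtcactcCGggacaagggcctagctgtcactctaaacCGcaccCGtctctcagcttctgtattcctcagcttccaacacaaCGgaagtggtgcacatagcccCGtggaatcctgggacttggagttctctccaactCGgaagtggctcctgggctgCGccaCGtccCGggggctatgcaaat
Actg1: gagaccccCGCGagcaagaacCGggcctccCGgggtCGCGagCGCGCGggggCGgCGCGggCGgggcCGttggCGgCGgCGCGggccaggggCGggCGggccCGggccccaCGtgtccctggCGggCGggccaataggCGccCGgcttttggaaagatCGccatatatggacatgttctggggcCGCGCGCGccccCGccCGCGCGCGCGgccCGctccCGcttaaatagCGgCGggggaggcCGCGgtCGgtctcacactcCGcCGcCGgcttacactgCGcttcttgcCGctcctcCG
Cfl1: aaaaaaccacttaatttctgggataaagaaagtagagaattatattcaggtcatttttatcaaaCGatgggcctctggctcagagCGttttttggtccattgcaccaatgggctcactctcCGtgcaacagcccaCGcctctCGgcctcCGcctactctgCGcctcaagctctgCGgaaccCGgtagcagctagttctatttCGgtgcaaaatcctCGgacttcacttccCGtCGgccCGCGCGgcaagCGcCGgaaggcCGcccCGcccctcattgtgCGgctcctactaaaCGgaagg
The Myo1f window held 5 CpG dinucleotides and the Arhgdib window 4, whereas the Dock8 window held 52. The Tln1 window held 16, the Actg1 window 50 and the Cfl1 window 22.

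All 39 genes were marked in both replicates, 12 of 12 leukocyte-restricted and 27 of 27 broadly expressed. The genes were chosen with earlier results of these data known, so this count is a description only. Marked means that both replicates' lists had a peak sharing at least 1 bp with the window reaching 1000 bp to either side of any annotated transcript start. By the same rule 10869 of all 21938 protein-coding genes, or 49.5%, were marked. The share was 53.5% by replicate 1 alone and 49.5% by replicate 2 alone, and 878 genes, 4.00%, had a peak in replicate 1 only, none of them among the members. Since no member lacked the mark, the members are compared below by how far it spread. Peaks no more than 1000 bp apart were joined into domains, and each gene was given, per replicate, the width of its widest domain at a window.

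Domains of both classes had a larger median width than those of all marked genes, and the broadly expressed class had the larger of the 2 medians. The median joined width, as the mean of the replicates, was 2606.5 bp for the leukocyte-restricted genes and 3475 bp for the broadly expressed genes, against 1946.5 bp for all marked protein-coding genes. The difference between the class medians was -868.5 bp (leukocyte-restricted minus broadly expressed), and it was -864 bp in replicate 1 and -889.5 bp in replicate 2. With peaks joined within 3000 bp it was -263.75 bp. The joined width exceeded the median of all marked genes for 10 of 12 leukocyte-restricted and 26 of 27 broadly expressed genes. The exceptions were Rac2, Was and Arpc1a. The range of the leukocyte-restricted class, 1688.5 to 4938 bp, lay inside that of the broadly expressed class, 1288 to 6874.5 bp. Domains of at least 4000 bp in both replicates were found at 2 of 12 leukocyte-restricted genes (Myo1f and Dock8) and at 9 of 27 broadly expressed genes (Actb, Tln1, Actg1, Cfl1, Actr3, Pfn1, Rhog, Capg and Arpc2), against 343 of 10869 marked genes, or 3.16%.

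The class difference shrank when peaks were not joined. The widest single peak had a median of 2452.25 bp in the leukocyte-restricted class and 2673.5 bp in the broadly expressed class, against 1473.5 bp for all marked genes. The difference was -221.25 bp for the mean of the replicates, -143.5 bp in replicate 1 and 173 bp in replicate 2, so its sign was not the same in the 2 libraries. It was also positive with windows of 500 bp, with 5′ ends only and without the 7 genes whose class was less sure (Dock8, Coro1a, Lsp1, Capg, Arpc1b, Vav3 and Wipf1). Single peaks exceeded the median of all marked genes at 12 of 12 leukocyte-restricted and 24 of 27 broadly expressed genes. The classes also differed in how many peaks made up a domain. The domain was a single peak in both replicates at 8 of 12 leukocyte-restricted genes (66.7%) and at 4 of 27 broadly expressed genes (14.8%), namely Arpc4, Wipf1, Myo1e and Arpc1a, against 46.8% of all marked genes.

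**Figure D1:**
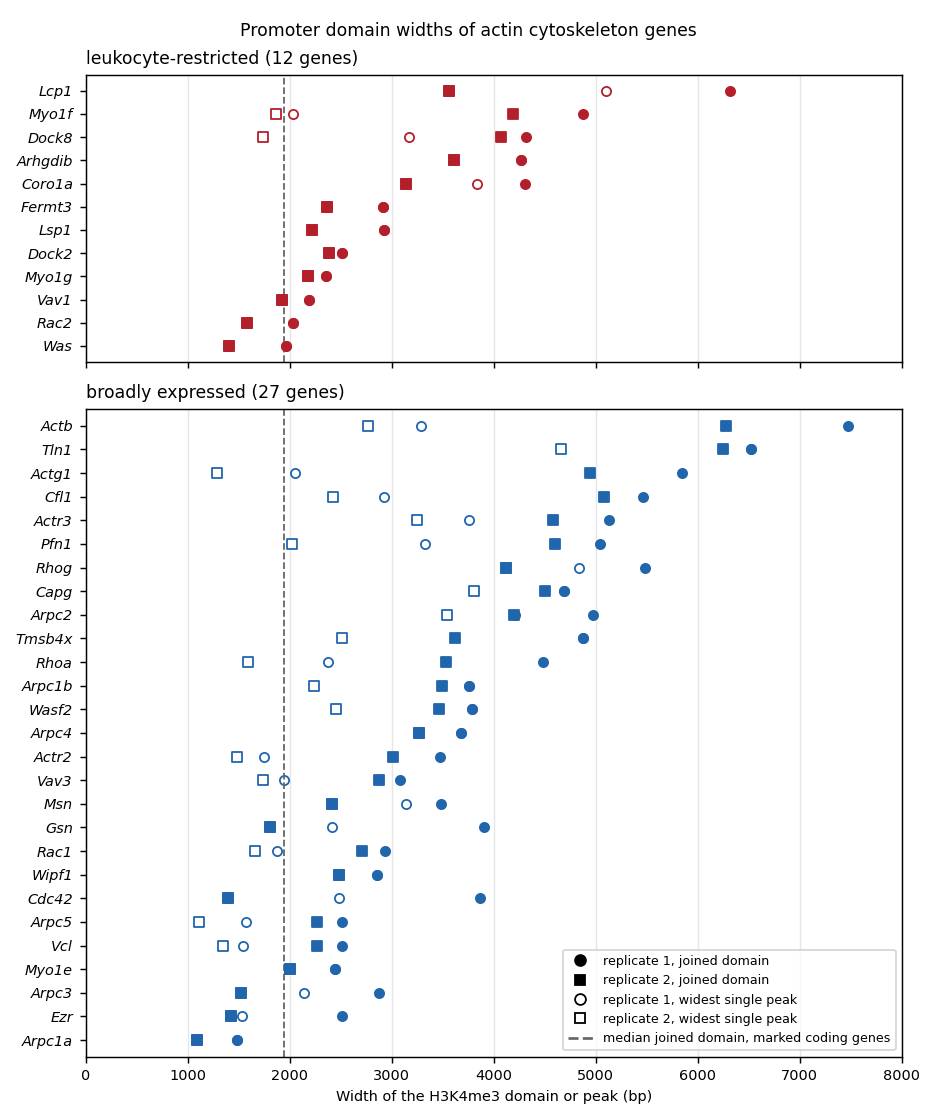
Width in bp of the joined H3K4me3 domain (filled) and of the widest single peak (open) for each gene, leukocyte-restricted genes in red above broadly expressed genes in blue, with circles for replicate 1 and squares for replicate 2; an open symbol is hidden where the domain is a single peak. The dashed line is the median joined width of all marked protein-coding genes, 1946.5 bp, and only Rac2, Was and Arpc1a have a mean width below it.

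The medians of peak height lay close together. Height was taken as the highest fold that the authors' list gives any peak at the gene's windows, expressed as a percentile of the replicate's own list. Its median was 81.2 in the leukocyte-restricted class and 83.3 in the broadly expressed class, against 72.8 for all marked genes, a difference of -2.05 percentile points. The difference was -5.84 with 5′ ends only and turned to 1.47 without genes that share a window. It was above the median of all marked genes for 10 of 12 leukocyte-restricted and 19 of 27 broadly expressed genes. A narrow domain could be high and a wide one low. Rac2, the second narrowest leukocyte-restricted gene, had the highest mean percentile of its class, with a fold of 59.8 in replicate 1 and 20.1 in replicate 2, at percentiles 98.8 and 89.4. Cfl1, among the widest genes, had 31.3 and 12.8, at percentiles 64.1 and 60.3.

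The genes for actin itself and for the proteins that bind its monomers had the largest median joined width of the roles described here. All 5 were broadly expressed, their joined widths ranged from 4248.5 to 6874.5 bp with a median of 5275.5 bp, and 4 of the 5 reached 4000 bp in both replicates. By the widest single peak their median was 2676.5 bp, below the 3489.5 bp of the genes that bundle, cap, sever or bind filaments. Actb, which encodes beta-actin, had the widest domain of the 39 genes, 7475 bp in replicate 1 (chr5:142902646-142910120) and 6274 bp in replicate 2. That domain covered the whole 3640 bp gene in both replicates and reached 3366 and 2541 bp upstream of its start. Its folds were 43.5 and 18.8, at percentiles 83.1 and 85.4. Actg1, for gamma-actin, had 5847 and 4944 bp in replicates 1 and 2 with folds of 46.0 and 17.4 at percentiles 86.5 and 80.1. By joined width, both actin genes were among the 3 widest of the 39. The widest single peak of Actg1 measured only 2052 and 1289 bp. Cfl1, for the filament-severing protein cofilin, had 5467 and 5084 bp. Its domain reached further upstream than downstream in both replicates, with a mean reach of 3086.5 bp upstream and 2188 bp downstream. The Actg1 domain reached further downstream in replicate 1 (3215 bp, and 2631 bp upstream) and further upstream in replicate 2 (2766 bp, and 2177 bp downstream).

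Pfn1 encodes profilin, which delivers actin monomers to growing filament ends, and its domain measured 5042 bp in replicate 1 and 4600 bp in replicate 2. Tmsb4x encodes thymosin beta 4, which holds monomers in reserve, and measured 4874 and 3623 bp. As with Actb, the Tmsb4x domain covered the whole gene, of 2223 bp, in both replicates, which was so at 0.920% of all marked genes. The Pfn1 domain covered all of its gene in replicate 1 and 94.3% of it in replicate 2. Actg1, at 2853 bp another short gene, was covered to 100% in replicate 1 and 76.3% in replicate 2. Width and height went separate ways here: the folds of Tmsb4x, 34.6 and 13.2, stood at percentiles 69.1 and 62.1, below the median of marked genes, as did those of Cfl1.

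The 8 genes of the Arp2/3 complex, which nucleates branched filaments, were all marked in both replicates but spread over a wide range of widths. Actr3 and Actr2 encode the actin-related subunits that start the new filament. Actr3 had 5128 bp in replicate 1 and 4584 bp in replicate 2 with folds of 35.2 and 15.9, whereas Actr2 had 3474 and 3014 bp. The folds of Actr2, 33.4 and 12.0 at percentiles 67.2 and 55.8, were among the lowest 5 of the broadly expressed class. Among the other subunits, Arpc2 had 4969 and 4203 bp, Arpc1b had 3759 and 3490 bp, Arpc4 had 3683 and 3267 bp, and Arpc5 had 2509 and 2267 bp. Arpc3 had 2873 and 1519 bp, wider than Arpc5 in replicate 1 and narrower in replicate 2. Arpc1a was the narrowest of the 8 in both, at 1488 and 1088 bp.

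Arpc1a and Arpc1b encode alternative forms of the same subunit, and loss of the second form is known to cause a blood cell disorder in people. The Arpc1b domain was wider in both replicates, while Arpc1a had folds of 49.7 and 20.4, whose percentiles, 91.4 and 90.1, were above those of Arpc1b, 84.1 and 81.7. Arpc4 had the highest mean fold percentile of all 39 genes, with folds of 56.6 and 27.4 at percentiles 97.4 and 99.4. Arpc5 followed closely within the complex, with folds of 53.2 and 23.6 at percentiles 95.1 and 96.6. A second coding gene begins within a window of each of Arpc4, Arpc5 and Arpc1a (Tada3, Rgl1 and Kpna7 in that order), so their marks cannot be assigned to 1 gene alone. Such sharing was found at 1 of 12 leukocyte-restricted and 5 of 27 broadly expressed genes, against 14.6% of all protein-coding genes. Arpc3 had 2 separate domains at its starts, and a different one was the wider in each replicate. The domain at its 5′ end measured 1919 and 1519 bp with folds of 45.6 and 19.4, and the one further inside the gene measured 2873 and 1448 bp with folds of 24.7 and 9.14. In both replicates, separate domains were found at the starts of 2 of 12 leukocyte-restricted genes (Lcp1 and Dock8) and 3 of 27 broadly expressed genes (Arpc3, Wipf1 and Capg), against 5.26% of all marked genes.

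Among the activators of the complex, the leukocyte-restricted gene was the narrowest. Was encodes WASP, the nucleation promoting factor of blood cells, whose loss causes an immunodeficiency in people. Its domain measured 1967 bp in replicate 1 and 1410 bp in replicate 2, the narrowest of the leukocyte-restricted class, with folds of 28.0 and 10.1 at percentiles 59.4 and 47.2. Wipf1 encodes the partner that stabilises WASP, and its widest domain of 2860 and 2487 bp lay at an internal start, 43265 bp inside the gene. A second domain at the 5′ end of Wipf1 measured 2105 and 1843 bp with lower folds, 20.6 and 7.70 against 30.2 and 14.9 at the internal start. Wasf2 encodes a WAVE protein that acts below Rac, and had 3784 and 3462 bp with folds of 59.6 and 22.6 at percentiles 98.8 and 95.0.

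The small GTPases act as membrane-bound switches upstream of these factors. Rac2, the Rac of blood cells that also serves the phagocyte oxidase, had 2033 bp in replicate 1 and 1584 bp in replicate 2. Its ubiquitous relative Rac1 had 2930 and 2704 bp. The joined domain of Rac2 was thus narrower in both replicates. The fold percentiles of Rac2, 98.8 and 89.4, were higher than those of Rac1, 85.2 and 66.8. Rhoa, which drives contraction, had 4481 and 3534 bp with folds of 57.5 and 22.1 at percentiles 97.9 and 94.2, but its window also holds the start of Tcta. Rhog, an activator of Rac upstream of the Dock proteins, had 5481 and 4118 bp. Its domain sat at a start 5931 bp inside the annotated gene, not at the 5′ end.

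Cdc42, which shapes filopodia and cell polarity, had the lowest fold percentiles of the broadly expressed class, with folds of 27.1 and 11.3 at percentiles 57.7 and 53.0. Its domain was 3866 bp in replicate 1 but 1397 bp in replicate 2. In replicate 1 it was made of a downstream peak and an upstream peak of fold 5.35, and in replicate 2 it began 762 bp downstream of the 5′ end and held no annotated start. The spread of the width between replicates was largest at Lcp1, Cdc42 and Gsn, with an SD of 1950, 1746 and 1484 bp (n = 2 each). Arhgdib encodes the inhibitor that holds small GTPases in the cytosol of blood cells. As a single peak in each replicate it had 4267 and 3615 bp, with folds of 40.4 and 15.0 at percentiles 78.1 and 70.4, values close to the medians of all marked genes, 75.8 and 69.9.

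The exchange factors load GTP onto Rac and Cdc42. Vav1, the blood cell member of its family, had 2192 bp in replicate 1 and 1926 bp in replicate 2 with folds of 50.4 and 19.2 at percentiles 92.4 and 86.6. Vav3, found in more tissues, had 3085 and 2877 bp with folds of 52.3 and 22.4. Dock2, which drives Rac in migrating leukocytes, had 2516 and 2385 bp with folds of 43.5 and 17.8 at percentiles 83.1 and 81.7. Dock8, a factor for Cdc42 whose loss causes an immunodeficiency in people, had 4316 and 4072 bp with folds of 38.9 and 17.0 at percentiles 75.8 and 78.7. Dock2 and Dock8 differ in form as well as in width: the Dock2 domain was 1 peak in both replicates, whereas that of Dock8 held 2 and 3 peaks with a gap over the start.

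The proteins that bundle, cap, sever or bind filaments included the gene with the widest leukocyte-restricted domain by the mean of the replicates. Lcp1 encodes L-plastin, which bundles filaments in leukocytes, and had 6317 bp in replicate 1 (chr14:75176565-75182881) and 3559 bp in replicate 2. That domain held no annotated start. It began 45464 and 45616 bp downstream of the 5′ end of the gene, touching the window of an internal start, and its top folds were 43.5 and 16.7 at percentiles 82.9 and 77.3. A separate domain at the 5′ end of Lcp1 measured 1877 and 1753 bp with folds of 39.2 and 15.7, close to those of the wide domain. A window of Lcp1 also holds the start of Lrrc63. By the domain at its 5′ end, Lcp1 would be among the 3 narrowest leukocyte-restricted genes.

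Coro1a encodes the coronin of leukocytes, and had 4311 bp in replicate 1 and 3145 bp in replicate 2 with folds of 51.9 and 20.5 at percentiles 93.9 and 90.5. Its domain sat at a start 2971 bp inside the annotated gene. Lsp1, a leukocyte protein that binds filaments, had 2923 and 2216 bp and the lowest folds of all 39 genes, 22.8 and 7.44 at percentiles 51.7 and 33.5. Capg caps filament ends and is abundant in macrophages. Its widest domain, 4688 and 4503 bp, lay at a start 4882 bp inside the gene, and another at the 5′ end measured 1563 and 1213 bp with folds of 24.1 and 8.09. Gsn encodes gelsolin, which severs filaments, and had 3907 and 1808 bp with folds of 57.5 and 23.9 at percentiles 97.9 and 96.9. Its domain held 3 peaks in replicate 1 and 1 in replicate 2.

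Among the 5 linkers to integrins and to the membrane, Tln1 stood far above the rest, whose mean widths ran from 1968 to 2949.5 bp. Tln1 encodes talin, which switches integrins on, and had 6524 bp in replicate 1 (chr4:43557421-43563944) and 6243 bp in replicate 2, the second widest of the 39 genes, with folds of 51.9 and 19.1 at percentiles 93.7 and 86.3. It was a single peak of 6524 bp in replicate 1, and its window also holds the start of Creb3. Fermt3, the kindlin of blood cells that assists talin, had 2917 and 2370 bp with folds of 49.7 and 18.9 at percentiles 91.4 and 85.5. Vcl, for vinculin, had 2509 and 2266 bp with folds of 37.6 and 16.6. Msn and Ezr encode moesin and ezrin, which join filaments to the membrane. Msn had 3482 and 2417 bp with folds of 35.3 and 12.5, whereas Ezr had 2511 and 1425 bp with folds of 51.0 and 18.3.

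Class I myosins move membrane along filaments at the cup. Myo1f, expressed mainly in blood cells, had 4870 bp in replicate 1 (chr17:33555370-33560239) and 4191 bp in replicate 2 with folds of 38.1 and 16.3 at percentiles 74.6 and 75.7. Myo1g, also a leukocyte gene, had 2352 and 2182 bp with folds of 46.5 and 21.3 at percentiles 87.2 and 92.4. Myo1e, which is found in many tissues, had 2442 and 2005 bp at fold percentiles 76.1 and 66.8. By joined width Myo1f was the widest of the 3, but by the widest single peak (2033 and 1862 bp) it was the narrowest in both replicates. Myo1f also had the lowest CpG content of all the members with a start in the domain.

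The layout of the domains around the transcript start differed between the classes. For this the start used was the most upstream annotated start of the gene inside the widest domain of both replicates, called the marked start here, a definition chosen after the data were seen. It could be placed for 11 of 12 leukocyte-restricted and 24 of 27 broadly expressed genes (Lcp1, Cdc42, Arpc3 and Ezr had none) and for 9091 of all marked genes. It lay over 1000 bp from the 5′ end of the gene at 1 of 11 leukocyte-restricted genes (Coro1a) and 3 of 24 broadly expressed genes (Rhog, Capg and Wipf1), against 9.03% of all such genes. The domain reached a median of 266 bp upstream of it in the leukocyte-restricted class and 904 bp in the broadly expressed class, against 686.5 bp in all genes with such a start. Downstream the medians were 2120 and 2695 bp, against 1242.5 bp. By the mean of the replicates, domains reached further downstream than upstream at 11 of 11 and 22 of 24 genes, against 81.2% of all such genes. By the class medians, the members' added width thus lay mainly downstream, over the beginning of the gene body. Upstream reach was greater in the broadly expressed class. The 5 actin and monomer-binding genes differed, with medians of 2698.5 bp upstream and 2768.5 bp downstream. Broadly expressed genes whose window holds another coding start were kept. Their upstream reach was 1296.5 bp at Rhoa, 1232 bp at Arpc4, 1138.5 bp at Tln1, 770.5 bp at Arpc5 and 189 bp at Arpc1a. Coding starts beyond the windows were not looked for, so a neighbour's part in the reach was not tested.

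**Figure D2:**
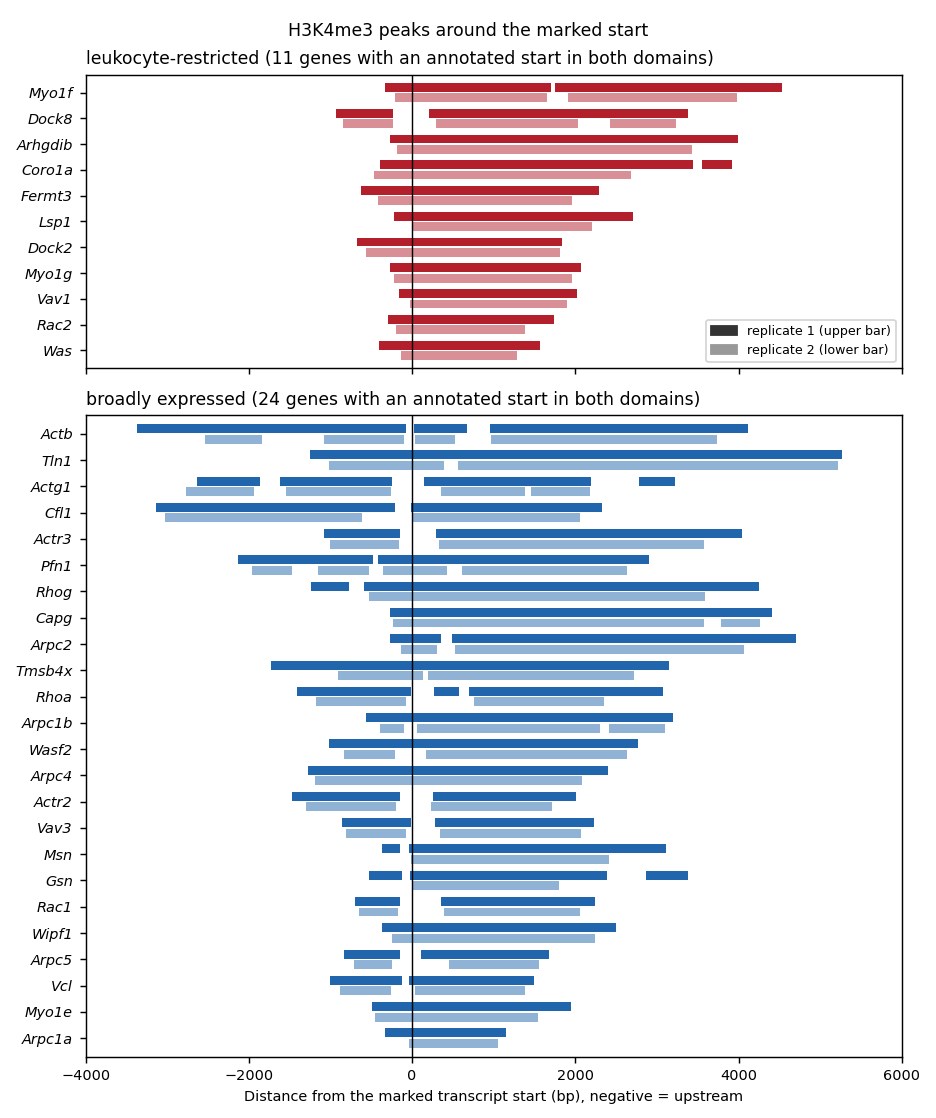
Extent of each H3K4me3 peak of the widest domain in bp from the marked start, with replicate 1 as the upper and replicate 2 as the lower bar of each gene, leukocyte-restricted genes above broadly expressed genes. Red bars begin within 1000 bp upstream of the start in all 11 genes, whereas several blue domains (Actb, Cfl1, Actg1, Pfn1) reach beyond that, and 9 genes show a gap at the start in both replicates.

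Some starts lay in a gap between peaks. The marked start lay outside any peak, with peaks on both sides, in both replicates at 1 of 11 leukocyte-restricted genes (Dock8) and at 8 of 24 broadly expressed genes (Actb, Actg1, Actr3, Rhoa, Actr2, Vav3, Rac1 and Arpc5), against 16.1% of all genes with such a start. The gap was 433 bp in replicate 1 and 529 bp in replicate 2 at Dock8. Among the broadly expressed genes it was smallest at Actb, with 98 and 133 bp, and in replicate 2 largest at Rhoa, with 829 bp against 277 bp in replicate 1. Cfl1, Arpc1b, Wasf2 and Vcl had such a gap in replicate 2 only. Active starts are commonly free of nucleosomes, but nucleosome positions were not measured here.

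The classes stood apart in the CpG content of their promoters. The ratio of observed to expected CpG dinucleotides within 1000 bp of the marked start had a median of 0.229 in the leukocyte-restricted class and 0.627 in the broadly expressed class, against 0.629 in all genes with such a start. It was under 0.4 at 10 of 11 leukocyte-restricted genes and at 2 of 24 broadly expressed genes (Wipf1 and Capg), against 10.9% of all such genes, with 0.4 chosen after the data were seen. The lowest ratio was 0.0895, at Myo1f. Dock8, at 0.956, was the 1 leukocyte-restricted gene with a marked start above 0.4 and the highest of all the members with such a start. Lcp1, left out because its widest domain holds no start, had a ratio of 0.523 at its 5′ end, where its separate domain lies. The choice of start matters for 2 genes. At Wipf1 the ratio was 0.326 at the marked start and 0.799 at the 5′ end, and at Rhog it was 0.590 at the marked start and 0.161 at the 5′ end.

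The layout varied with CpG content both among the members and among all genes. Members with a ratio under 0.4 reached a median of 260 bp upstream (12 genes) and those at or above it 927.5 bp (23 genes), against 306.75 and 732 bp in all genes of each kind. The domain was a single peak in both replicates at 9 of 12 CpG-poor members and 3 of 23 CpG-rich members, against 80.7% and 42.3% of all genes of each kind. A start gap was found at 0 of 12 and 9 of 23 members, against 0.101% and 18.1%. Dock8, with a CpG-rich promoter, had a start gap, as did 8 of 24 broadly expressed genes. Its upstream reach (938 bp in replicate 1 and 844 bp in replicate 2) was near their median of 904 bp. Wipf1 and Capg, with CpG-poor promoters, reached 307.5 and 254 bp upstream on average. Some CpG-rich broadly expressed genes reached no further. The reach was 189 bp at Arpc1a (ratio 0.542), 192 bp at Msn (0.409), 199.5 bp at Arpc2 (0.723) and 265 bp at Gsn (0.503). CpG-poor members had a median joined width of 2606.5 bp, against 1689 bp in all CpG-poor genes, and CpG-rich members had 3624.5 bp, against 2091 bp in all CpG-rich ones. The members' medians were thus above those of all genes on both sides of the divide. Class and CpG content are nearly the same division in these genes, so which of the 2 goes with the layout cannot be told apart. The class of each of the 3 exceptions (Dock8, Wipf1 and Capg) is itself less sure, and without them the 2 divisions are the same among genes with a marked start.

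**Figure D3:**
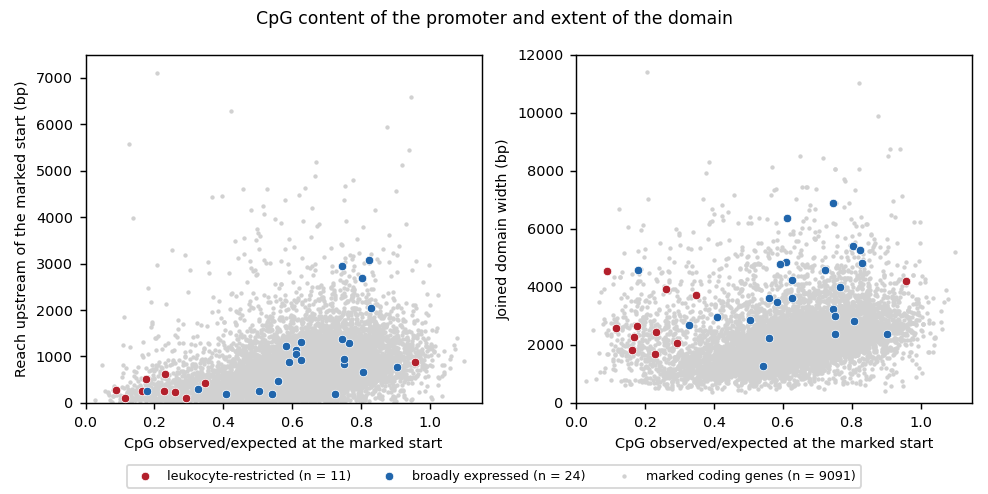
CpG observed/expected ratio at the marked start (x axis) against the mean reach of the domain upstream of that start in bp (left) and the mean joined width in bp (right), for 11 leukocyte-restricted genes (red), 24 broadly expressed genes (blue) and all 9091 marked coding genes with such a start (grey). Red points lie at low ratios and short upstream reach except for Dock8 at a ratio of 0.956, while in width red and blue overlap.

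Promoter sequences of RefSeq were examined for short motifs on both strands. A table entry existed for 35 of the 39 genes (not Actb, Lsp1, Rac1 and Rac2), and an entry overlapped the domain of both replicates by at least 1 base for 9 leukocyte-restricted and 23 broadly expressed genes. The window lay wholly inside both domains for 4 of the 9 and 19 of the 23. The smallest overlaps were in replicate 2, at Ezr (10 bases), Gsn (17 bases), Msn and Vav1 (47 bases each). The median number of CpG dinucleotides in such a 300-base window was 5 in the leukocyte-restricted and 23 in the broadly expressed class, against 7 in all 32851 windows of the table. This background, also used for the motifs below, includes promoters without the mark, unlike that of the CpG ratio above. The CArG box, the site of serum response factor that is known from actin genes, was found in 0 of 9 leukocyte-restricted and 4 of 23 broadly expressed windows (Actg1, Arpc4, Myo1e and Vcl), against 1.63% of all windows. In Actg1 it began 90 bases before the start, and it is visible above as the lower-case run ccatatatgg. The letters GAGGAA, the core of sites of the myeloid factor PU.1, were found in 4 of 9 and 5 of 23 windows, against 28.3% of all. The longer form GAGGAAGT, which contains GAGGAA, was found in 1 of 9 (Vav1, before the beginning of the replicate 2 domain) and 2 of 23 windows (Arpc1b and Rhog), against 3.20%. The letters TATAAA were found in 1 of 9 and 1 of 23 windows, against 13.6%, and are present in the Arhgdib sequence above. The letters GGGCGG, a GC box, were found in 4 of 9 and 16 of 23 windows, against 35.7%. A match describes these letters only, and binding was not measured.

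Members of the same gene family often differed in their marking. Of the actins, Actb and Actg1 carried wide domains, whereas none of the 4 muscle actins (Acta1, Acta2, Actc1 and Actg2) had a peak within 1000 bp of a start in either replicate. The nearest peak lay 34336 and 34533 bp from the closest annotated start of Acta1 and 28665 and 34810 bp from that of Acta2. Profilin showed the same contrast, with Pfn1 marked and Pfn2 unmarked. Pfn2, with a CpG ratio of 0.838 at its 5′ end, is CpG-rich, so the unmarked relatives are not all CpG-poor genes. Unmarked relatives also included Rac3, Arhgdig, Pls1, Fermt1, Fermt2, Tln2, Wasf3, Wipf3, Myo1a, Myo1d, Myo1h, Vil1 and Avil. Scin, a relative of gelsolin, had a peak of 394 bp and fold 3.18 in replicate 1 only. Arhgdig lay close to the limit of the window, with the nearest peak 1565 and 1581 bp from its closest annotated start.

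Where relatives were marked, the member was usually the wider. Cfl1 had 5467 bp in replicate 1 and 5084 bp in replicate 2, against 1986 and 1799 bp at Cfl2, the muscle cofilin, and 2695 and 2208 bp at Dstn, although Cfl2 had the higher folds, 52.0 and 22.3. Tmsb4x had 4874 and 3623 bp, against 2838 and 2397 bp at Tmsb10. The monomer-binding members were thus wider than their relatives in both replicates. Coro1a had 4311 and 3145 bp, against 1902 and 1223 bp at Coro1b and 2844 and 2512 bp at Coro1c. Arhgdib had 4267 and 3615 bp, against 3106 and 2873 bp at Arhgdia. These 2 leukocyte-restricted genes were wider than each relative in both replicates. Lcp1 had 6317 and 3559 bp at its internal site, against 1794 and 1110 bp at Pls3. Wasf2 had 3784 and 3462 bp, against 1863 and 1785 bp at Wasf1, and Wipf1 had 2860 and 2487 bp, against 1787 and 1640 bp at Wipf2. Windows of Coro1b and Wasf1 also hold the start of another coding gene, Ptprcap and Cdc40 in that order.

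The order of joined widths was the reverse in a few families. Was had 1967 bp in replicate 1 and 1410 bp in replicate 2, against 2928 and 2694 bp at its ubiquitous relative Wasl. Rac2 was narrower than Rac1, and Vav1 was narrower than Vav3 but wider than Vav2, which had 1317 and 567 bp with folds of 15.5 and 7.83. Ezr was narrower than Rdx, the radixin gene, which had 3088 and 2450 bp, and Msn was wider than it in replicate 1 and narrower in replicate 2. Myo1c, a widely expressed class I myosin outside the set, had 6300 and 5497 bp, wider than Myo1f, Myo1g and Myo1e. By joined width, Was and Wasl, Rac2 and Rac1, and Vav1 and Vav3 each set a leukocyte-restricted gene beside a wider relative. By the widest single peak, Vav1 (2192 and 1926 bp) was wider than Vav3 (1948 and 1735 bp) in both replicates. Was and Rac2 were then wider than Wasl and Rac1 in replicate 1 and narrower in replicate 2. Ezr (1528 and 1425 bp) was then wider than Rdx (1491 and 861 bp) in both.

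**Figure D4:**
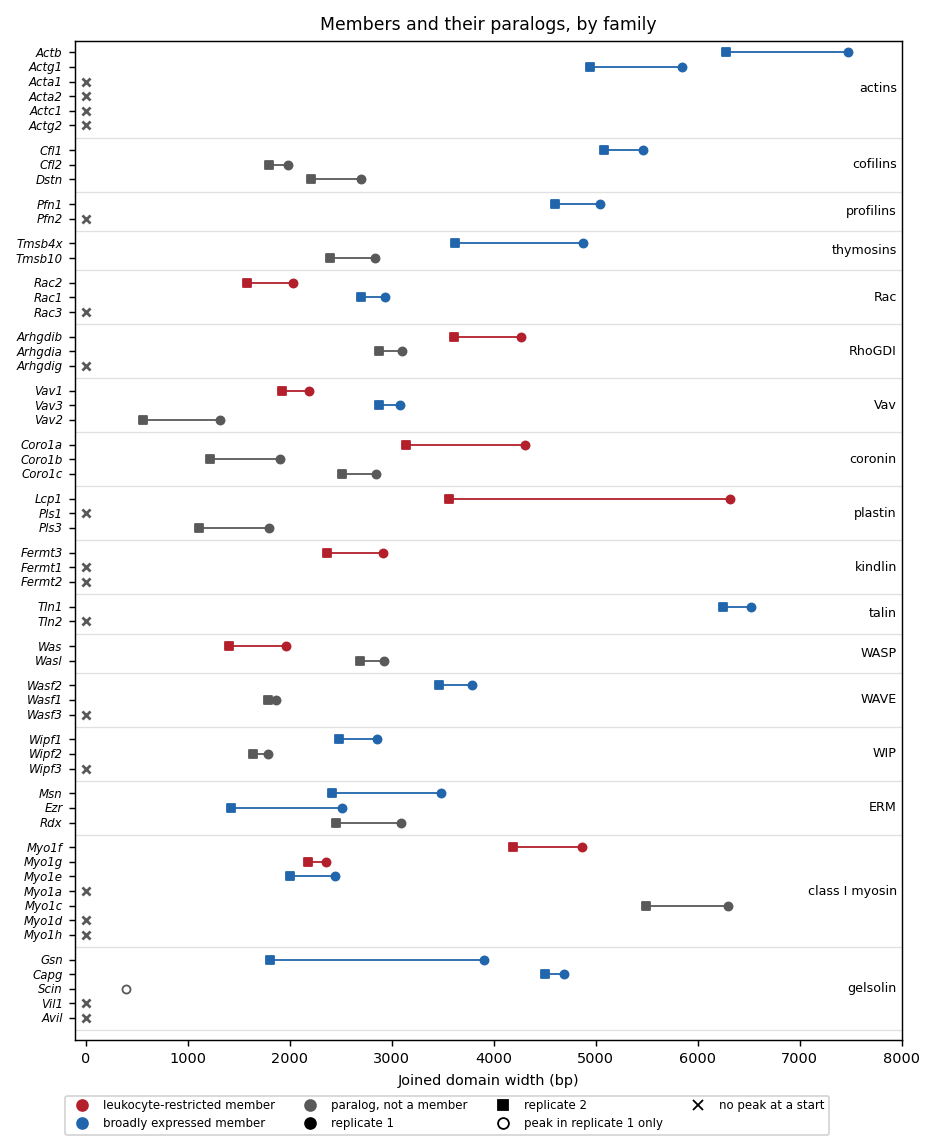
Joined domain width in bp of members (red leukocyte-restricted, blue broadly expressed) and of their paralogs outside the set (grey) in 17 gene families, with a circle for replicate 1, a square for replicate 2, an open circle for a peak in replicate 1 only and a cross at 0 for a gene with no peak at a start. Crosses mark the 4 muscle actins and 14 other relatives, while every member has a domain in both replicates.

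The rest of the pathway was a list of 104 further actin genes, also chosen with earlier results of these data known. Of these, 79 were marked in both replicates (76.0%), 3 in replicate 1 only and 22 in neither, against the 49.5% of all protein-coding genes. Their median joined width was 2254.5 bp, below the 3244 bp of the 39 members, and 1 of the 79 reached 4000 bp in both replicates (Myo1c). The widest genes of each subgroup are named by the mean of the replicates. All 8 formins, which build unbranched filaments, were marked, with the widest domains at Fhod1 (3151 bp in replicate 1 and 2864 bp in replicate 2), Diaph1 (2891 and 2683 bp) and Daam1 (2474 and 2204 bp). All 10 genes of the cofilin pathway were marked, led by Wdr1 (2913 and 2533 bp), Limk1 (2750 and 2376 bp) and Dstn. All 6 genes of the group of Arp2/3 paralogs and coronins (Arpc5l, Actr3b, Coro1b, Coro1c, Coro2a and Coro7) were marked. Arpc5l (6234 and 2099 bp, its window shared with Rpl35) was the widest, followed by Coro1c and Coro7 (2618 and 2314 bp). In replicate 2, Coro1c (2512 bp) and Coro7 were wider than Arpc5l.

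Of 14 genes of the WAVE complex and WASP relatives, 11 were marked in both replicates, the widest being Wasl, Abi3 (3968 and 1093 bp) and Cyfip2 (2492 and 2017 bp). Abi3 was the widest of the 11 in replicate 1 but the narrowest in replicate 2. Nckap1 was unmarked while its blood cell counterpart Nckap1l had 1867 and 1756 bp, and Wasf3 and Wipf3 were unmarked too. Of 13 capping, monomer and elongation factors 10 were marked, the widest being Capza1 (4292 and 3588 bp), Cap1 (4018 and 3658 bp) and Vasp (3588 and 3313 bp). Cttn, for cortactin, was unmarked, while its blood cell relative Hcls1 had 2470 and 1966 bp. Enah was unmarked with a peak 1054 and 1141 bp from its closest annotated start, just outside the window, and Pfn2 was unmarked. Of 15 further small GTPases and their regulators 13 were marked, the widest being Arhgef2 (4785 and 3683 bp), Rhob (4233 and 3625 bp) and Arhgdia.

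The lowest shares were in the subgroups with muscle, epithelial and adhesion genes. Of 13 bundling, crosslinking and tropomyosin genes 8 were marked in both replicates, the widest being Tpm3 (5067 and 3779 bp), Flna (3347 and 2716 bp) and Actn4 (3170 and 2508 bp). Tpm2 had a peak of 765 bp in replicate 1 only, as did Scin, and Avil, Pls1 and Vil1 had none. Of 10 adhesion genes 6 were marked, the widest being Lasp1 (3424 and 2943 bp), Ilk (3605 and 2644 bp) and Zyx (3520 and 2706 bp), while Fermt1, Fermt2, Parva and Tln2 were not. Parvg, the parvin of blood cells, had 2386 and 1418 bp. Of 11 myosins 7 were marked, the widest being Myo1c, Myh9 (3994 and 3368 bp) and Myl6 (3692 and 2897 bp). Myh10, a non-muscle myosin, had a peak of 1375 bp in replicate 1 only. Windows of Fhod1, Abi3, Capza1 and Ilk also hold the start of another coding gene (Slc9a5, Gngt2, St7l and Rrp8 in that order). Fermt3, Nckap1l, Hcls1 and Parvg were marked where the relatives Fermt1, Nckap1, Cttn and Parva were not. Of these, Nckap1l, Hcls1 and Parvg were picked after their values were seen. In other families, relatives of leukocyte-restricted genes were marked too, among them Rac1, Wasl, Vav2, Vav3, Coro1b, Coro1c, Arhgdia and Pls3.

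**Figure D5:**
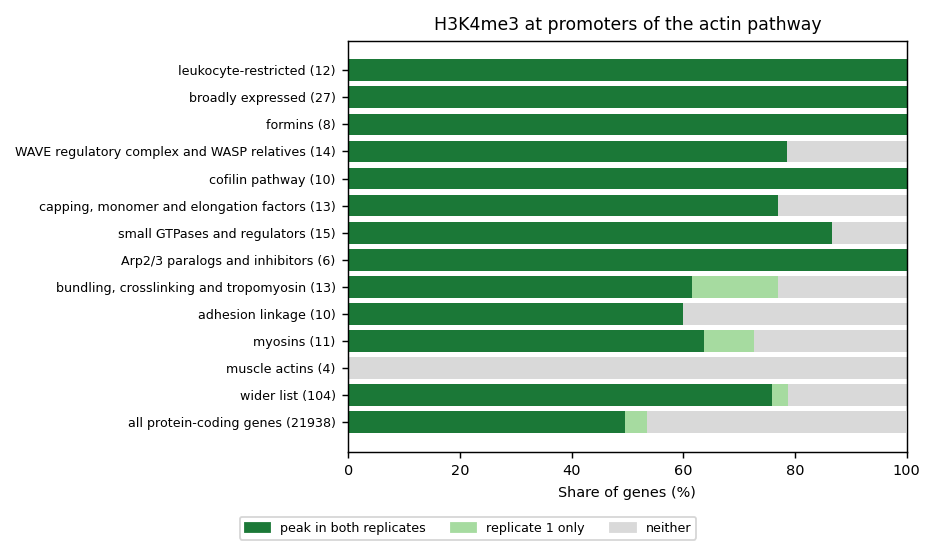
Share in percent of genes with an H3K4me3 peak within 1000 bp of a start in both replicates (dark green), in replicate 1 only (light green) or in neither (grey), for the member classes, the subgroups of the wider actin list and all protein-coding genes, with the number of genes in brackets. Both classes, the formins, the cofilin pathway and the Arp2/3 paralogs stand at 100%, the muscle actins at 0 and all protein-coding genes at 49.5%.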

How the data were processed

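H3K4me3 ChIP-seq peak lists of 2 biological replicates of 1 group were used, with 2 lists of the whole series as alternatives. According to the deposited provenance texts, the authors called a pseudoreplicated list on each replicate's alignments, another on both together (pooled) and a replicated list. The assembly is mm10, per the labels. For the aligner, the peak caller and its thresholds, nothing is stated (not given in the sources used here). The fold (a ratio) and the −log10 p of each peak are the authors' deposited values, and what the fold is relative to is not stated. They served only to rank and filter peaks within a list. The deposited score, −log10 q and summit offset were used for no result. Depth is unknown, so no precision from depth is given.

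Protein-coding starts came from GENCODE M21 on 21 chromosomes and sequences from the GRCm38.p6 genome and RefSeq. Windows of 1000 bp on either side of a start, joining within 1000 bp and an overlap of 1 bp were computed with Python 3.11.15, pandas 2.3.3, numpy 2.4.6 and pysam 0.24.0. The routines were checked on 400 simulated starts and on 500 genes against a direct search, with 400 and 500 correct. Members, classes, lists and motifs were chosen with earlier results of these data known. The class of a gene is from general knowledge, and Dock8, Lsp1, Coro1a, Wipf1, Capg, Arpc1b and Vav3 are borderline. Values are given for all members, and in full for the 5 widest, narrowest, highest and lowest of each class and those with shared windows (for Myo1e, the fold only as percentiles). In the wider list, paralogs, the 3 widest of each subgroup, genes marked in 1 replicate and up to 3 unmarked genes are named, and Parvg, Nckap1l and Hcls1 were added after their values were seen. One further paralog is not reported here. Counts and medians describe the genes. No test was run, since 1 group allows none and genes are not replicates of a condition. Alternatives were other windows (500 and 2500 bp), 5′ ends only, the 2 series lists, the 15000 peaks of highest −log10 p, an overlap of 200 bp, other joining, each replicate alone, and genes without shared windows or without borderline members.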

Additional observations from a re-analysis of the deposited data

How the results depend on the processing

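Each of 77 alternative values was set beside its main value, and the counts of marked genes stayed within 1.5 times of the main count in every alternative run. All 39 members remained marked except Cdc42 with windows of 500 bp (38 marked) and Rhog and Coro1a with 5′ ends only (37 marked). The difference in median joined width (leukocyte-restricted minus broadly expressed, -868.5 bp) kept its sign throughout. It was -942.5 bp with windows of 500 bp, -811.25 bp with 2500 bp, -662 bp with 5′ ends only, -791 bp with the 15000 peaks of highest −log10 p, -1024.5 bp without borderline genes, -221.25 bp with no joining and -263.75 bp with joining within 3000 bp, and it ranged from -889.5 to -864 bp when either replicate was left out. The difference in single peak width (-221.25 bp) changed sign to 100 bp with windows of 500 bp, 218.25 bp with 5′ ends only and 43.5 bp without borderline genes, and ranged from -143.5 to 173 bp when either replicate was left out. The difference in fold percentile (-2.05) was -3.55 with windows of 500 bp, -5.84 with 5′ ends only, -3.58 in the replicated list and -3.21 in the pooled list, ranged from -3.06 to -1.49 when either replicate was left out, and changed sign to 1.47 without genes that share a window. The cause of these changes was not tested, apart from joining, which changes the width by construction. Of 348 member widths under alternatives that keep both replicates, 311 moved by no more than the spread between replicates and 37 by more. Many of the 311 did not move at all, since windows of 500 or 2500 bp left nearly every domain the same. Members that lost their call in a run were not counted in it. The wider list had 70 to 82 marked genes. No paired analysis was possible because there is 1 group. Depth is unknown, so a gene without a peak is not shown to lack the mark. Starts come from 1 annotation, and the classes from general knowledge.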
